A study of Mus musculus with 10 samples.

Results

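The genes of the mitochondrial respiratory chain and ATP synthase were followed through 10 libraries of bulk RNA-seq from the enamel organ of mice. The members were the genes whose symbol matches set name patterns for subunits of complexes I to V, with 5 symbols of pseudogenes left out of each table. They came to 98 genes, 13 encoded by the mitochondrial genome and 85 by the nucleus, of 16292 genes listed for ameloblasts and 16638 for the stratum intermedium. All 98 were listed in both tables, none was at 0 in any library, and all 98 passed the filter on low values. Complex I had 46 members, complex II 4, complex III 9, complex IV 20 and complex V 19. No measured value was used to choose them. Subunits whose symbols follow other patterns, such as Cyc1 of complex III, are not included.

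Both cell layers were cut out of frozen sections of hemi-mandibles by laser capture. Ameloblasts are the cells that lay down enamel and the stratum intermedium is the layer behind them. Each layer had 3 libraries from claudin-10 knockout (KO) mice and 2 from wild-type (WT) mice. Claudin-10 is a tight junction protein that forms pores for ions between cells. The 5 library-name prefixes KO1, KO3, KO9, WT5 and WT10 occurred once in each layer. Each prefix was taken to be a mouse, although no label says so. If libraries of a genotype share a mouse, the p-values reflect a spread that may be only technical. Strain, sex, age, the cells in which claudin-10 was deleted and the deleted part of the gene are details that the sources used here do not give.

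The respiratory chain passes electrons from NADH (complex I) and succinate (complex II) through complex III to oxygen at complex IV, and complex V uses the resulting proton gradient to make ATP. Complex II is built only of nuclear-encoded proteins, while the other complexes combine nuclear-encoded proteins with a few made inside the mitochondrion. The mitochondrial genome is transcribed as long RNAs from both strands that are then cut into single messages, whereas each nuclear gene has its own promoter. Maturing ameloblasts are rich in mitochondria, and the stratum intermedium is known for active ion transport and alkaline phosphatase.

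The nuclear members are regulated through their promoters, and the windows of 4 genes named below are shown. Ndufa6 and Atp5k ranked first among nuclear members of complexes I and V in the comparison between layers, where no gene passed the threshold. Cox8a and Cox8b are the ubiquitous and the muscle form of the same complex IV subunit. Whether these sequences bear on the values was not tested. The windows run 5′ to 3′ over 300 bases around the transcription start, from RefSeq on GRCm38.p6. Capitals mark matches to GCATGCGC (the core of NRF1 sites), CCGGAAG (the core of sites for GABP and other ETS factors), GCCATNTT (YY1) and TATAAA (the TATA box) on either strand.
Atp5k, chr5:108434350-108434649, strand minus: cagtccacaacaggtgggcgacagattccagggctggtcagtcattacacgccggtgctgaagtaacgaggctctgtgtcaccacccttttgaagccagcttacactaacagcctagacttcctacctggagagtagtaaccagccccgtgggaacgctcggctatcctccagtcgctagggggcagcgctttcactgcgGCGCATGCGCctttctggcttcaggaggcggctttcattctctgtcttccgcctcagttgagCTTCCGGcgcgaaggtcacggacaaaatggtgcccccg
Ndufa6, chr15:82354242-82354541, strand minus: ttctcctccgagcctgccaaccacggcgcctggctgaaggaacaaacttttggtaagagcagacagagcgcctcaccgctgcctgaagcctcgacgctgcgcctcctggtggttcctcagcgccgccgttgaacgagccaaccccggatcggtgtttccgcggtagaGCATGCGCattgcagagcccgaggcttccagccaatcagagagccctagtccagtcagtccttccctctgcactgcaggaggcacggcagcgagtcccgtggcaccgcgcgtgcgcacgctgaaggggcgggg
Cox8a, chr19:7217567-7217866, strand minus: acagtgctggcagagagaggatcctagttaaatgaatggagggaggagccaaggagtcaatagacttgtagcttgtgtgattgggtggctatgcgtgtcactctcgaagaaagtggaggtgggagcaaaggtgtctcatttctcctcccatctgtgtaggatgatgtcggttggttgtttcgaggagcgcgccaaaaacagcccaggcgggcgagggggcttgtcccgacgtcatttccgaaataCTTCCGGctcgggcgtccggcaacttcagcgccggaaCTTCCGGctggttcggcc
Cox8b, chr7:140900397-140900696, strand minus: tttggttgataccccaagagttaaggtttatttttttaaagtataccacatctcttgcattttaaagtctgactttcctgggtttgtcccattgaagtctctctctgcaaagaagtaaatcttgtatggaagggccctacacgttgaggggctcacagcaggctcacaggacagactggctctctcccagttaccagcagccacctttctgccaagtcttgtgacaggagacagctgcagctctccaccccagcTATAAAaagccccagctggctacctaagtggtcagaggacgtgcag

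The windows of Atp5k, Ndufa6 and Cox8a held 19, 27 and 19 CG pairs, while that of Cox8b held 2 and a TATA box. In the Atp5k window the pair of NRF1 matches lie on opposite strands and overlap. Windows were found for 68 of the 85 nuclear members, some with several starts, which gave 73 windows. NRF1's GCATGCGC was in 13.7% of these 73 windows, against 2.71% of all 32851 promoter windows in the table. CCGGAAG was in 23.3% of member windows, against 8.86% of all windows, and GCCATNTT was also in 23.3%, against 6.05%. TATAAA was in 11% of member windows, against 13.6% of all windows. The windows of members held a median of 19 CG pairs, against 7 in all windows. A match is a description of the letters and not evidence of binding.

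The mitochondrially encoded genes lie so close together that some share bases. mt-Atp8 and mt-Atp6, which encode a pair of membrane subunits of ATP synthase, share 43 bases of the plus strand at chrM:7927-7969 (GRCm38, GENCODE), shown here because reads on it belong to both genes. The capitals mark the start codon of mt-Atp6 inside mt-Atp8.
mt-Atp8 and mt-Atp6, chrM:7927-7969: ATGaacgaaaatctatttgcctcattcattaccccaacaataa
mt-Nd4l and mt-Nd4 share 7 bases, mt-Atp6 and mt-Co3 share 1, and mt-Nd5 and mt-Nd6 share 14 on opposite strands. Of all 98 members, 12 overlapped exons of another gene on the same strand and 31 on the opposite strand. The sources used here do not give how such reads, or reads that also match nuclear copies of mitochondrial genes or processed pseudogenes, were assigned, so the levels of these genes are uncertain to that extent.

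Before the members are compared, some facts of the libraries bear on every value. Cldn10 stood at 280.1, 407.8 and 148.7 normalized counts in KO1, KO3 and KO9 ameloblasts, against 751.8 and 600.1 in WT5 and WT10. Stratum intermedium libraries had 1003, 387.1 and 464.7 normalized counts in KO, against 2365 and 7257 in WT. Every KO library lay below every WT library in both layers, and none was at 0. Xist was present in KO1 and KO3 and the Y-linked Ddx3y in KO9, WT5 and WT10, in both layers. Ameloblast markers made up 2.18% to 9.12% of ameloblast libraries and 0.123% to 0.942% of stratum intermedium libraries, highest in KO1 ameloblasts. The list of stratum intermedium markers, which includes Cldn10, did not separate the layers. Its shares were 0.215% to 0.629% in ameloblasts and 0.233% to 0.683% in the stratum intermedium. Red blood cell markers had their highest share in WT5, at 1.28% of the ameloblast and 0.911% of the stratum intermedium library, against 0.0814% to 0.258% in the other 8 libraries. It also had the highest share of osteoclast markers, 0.756% and 0.919%, against 0.102% to 0.595% in the others. Odontoblast and pulp markers made up more, at 3.10%, 4.17% and 5.27% of KO1, KO3 and KO9 ameloblasts and 6.09% and 4.02% of WT5 and WT10 ameloblasts. In the stratum intermedium they made up 3.79%, 4.33% and 3.84% in KO and 7.11% and 2.51% in WT. In KO3, KO9 and WT5 ameloblasts they exceeded the ameloblast markers, which had 3.80%, 2.18% and 2.66%. The library names carry a group number: KO3 and WT5 are in group 1, KO9 and WT10 in group 2, and KO1 alone in group 3.

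Per kilobase of exon, the mitochondrially encoded genes led in both layers. mt-Cytb, the only mitochondrially encoded subunit of complex III, was highest, with a median of 135821 normalized counts per kilobase over the 5 ameloblast libraries (111083 to 144589) and of 155705 in the stratum intermedium (126390 to 170026). This gene was the only member whose range did not reach that of the next gene in both layers. mt-Atp8, mt-Co2, mt-Co1, mt-Atp6 and mt-Nd1 followed, with medians between 43772 and 63776 in ameloblasts and between 53639 and 72148 in the stratum intermedium. The lowest mitochondrially encoded genes were mt-Nd3 and mt-Nd4l, short subunits of complex I, with medians of 2926 and 2770 in ameloblasts and 4192 and 2630 in the stratum intermedium. These are within the span of the nuclear genes. The nuclear member with the highest level was Cox6a1, the ubiquitous form of complex IV subunit VIa, at 13687 in ameloblasts and 15955 in the stratum intermedium, followed in both layers by Cox4i1 with 9765 and 13173. The lowest was Cox7a1, a muscle form, at 178.3 and 192.2. Over the 13 mitochondrially encoded members the median level per kilobase was 29165 in ameloblasts, against 2366 over the 85 nuclear members. For the stratum intermedium it was 33621 over mitochondrially encoded members, against 2962 over nuclear members. Of the 97 neighbouring pairs in this order, only 2 in ameloblasts and 5 in the stratum intermedium had ranges over libraries that did not overlap.

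The summed message of both genomes was similar in size, and its balance varied from library to library. Mitochondrially encoded members made up 1.52%, 2.22% and 2.15% of the summed values in KO1, KO3 and KO9 ameloblasts, against 2.41% and 1.94% in WT5 and WT10. The shares of the stratum intermedium were 2.19%, 2.27% and 2.56% in KO, against 2.52% and 2.88% in WT. Nuclear members made up 1.51%, 1.73% and 1.46% in KO ameloblasts, against 1.87% and 1.66% in WT. In the KO stratum intermedium they made up 2.32%, 2.17% and 2.03%, against 1.65% and 2.33% in WT. In KO1 the mitochondrial share was the lowest of its layer in both layers. In these bulk captures, fewer cells of a type and less RNA per cell cannot be told apart.

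The log2 ratio of summed mitochondrially encoded to summed nuclear values does not depend on how a library was scaled. It was 0.02, 0.36 and 0.56 in KO1, KO3 and KO9 ameloblasts, against 0.37 and 0.22 in WT5 and WT10, so the KO libraries lay on both sides of the WT libraries. In the stratum intermedium it was -0.08, 0.07 and 0.34 in KO, against 0.61 and 0.30 in WT, and KO9 lay between the WT libraries. The means differed by 0.02 in ameloblasts and by -0.35 in the stratum intermedium (KO minus WT), where the SD between libraries of a genotype was 0.23 and 0.21. Within library group 1 the differences were -0.01 in ameloblasts and -0.54 in the stratum intermedium, and within group 2 they were 0.34 and 0.032. KO1 was the lowest library of each layer.

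Taken within a prefix, the ratio separated the genotypes. It was higher in ameloblasts than in the stratum intermedium of the same prefix in all 3 KO prefixes, by 0.10, 0.30 and 0.22 on the log2 scale in KO1, KO3 and KO9. It was lower in ameloblasts in both WT prefixes, with differences of -0.24 in WT5 and -0.09 in WT10. The means were 0.21 in KO and -0.16 in WT, a difference of 0.37, and the SD between prefixes of a genotype was 0.10. The difference was 0.54 within library group 1 and 0.31 within group 2, and it stayed between 0.29 and 0.44 when each prefix was left out in turn. Complex V showed the widest separation, at 0.55, 0.39 and 0.50 in KO, against -0.32 and -0.05 in WT. In WT10 complexes III and IV gave 0.04 and 0.01, still below every KO prefix. Complex III, complex IV and complex I gave KO minus WT differences of 0.46, 0.36 and 0.20. For complex I the KO prefixes (-0.30, 0.10 and 0.02) overlapped the WT prefixes (-0.21 and -0.30), through KO1. The complex I sums include Ndufa4l2, which was highest in KO1 in both layers, and complex I was not summed without it. A sum over chosen genes was given no test, and with 3 against 2 prefixes no exact permutation test can give a two-sided p below 0.1.

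**Figure D1:**
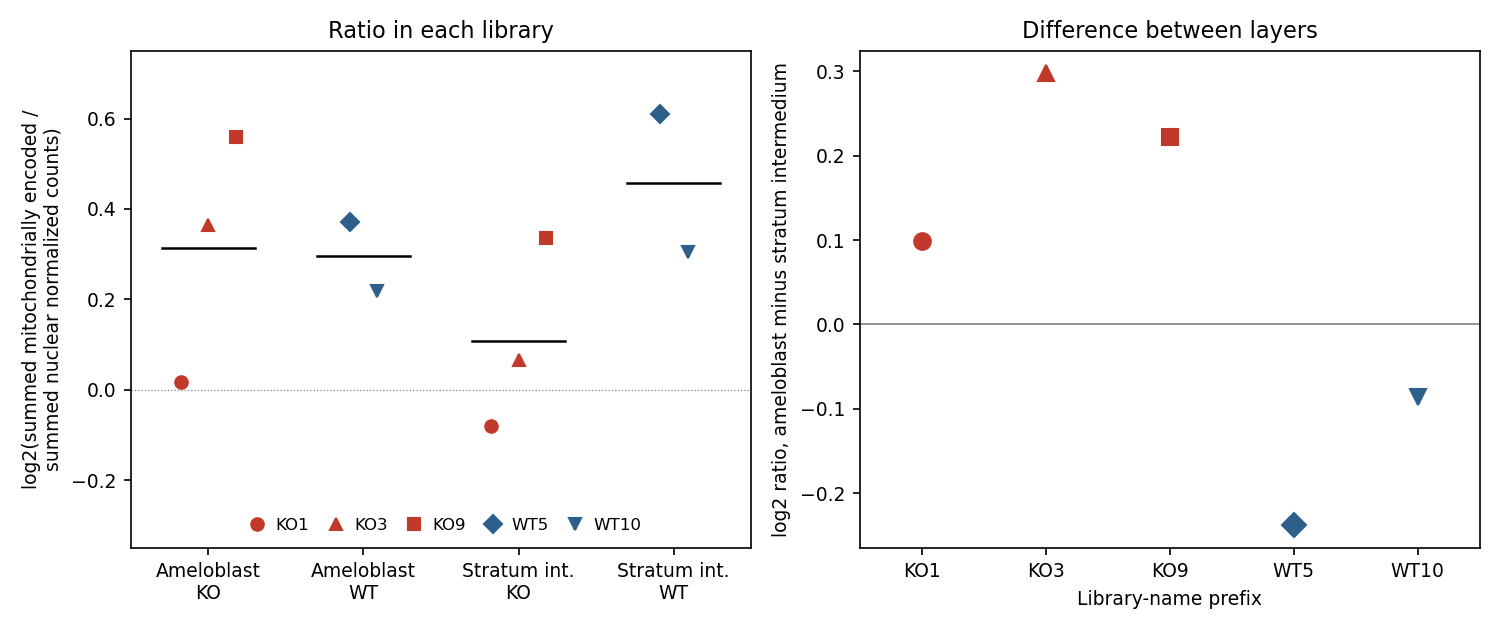
The left panel gives the log2 ratio of summed mitochondrially encoded to summed nuclear normalized counts in each library (points) with group means (bars), for KO and WT in each layer. The right panel gives the ameloblast minus stratum intermedium difference of that ratio for each prefix: KO1, KO3 and KO9 lie above 0 and WT5 and WT10 below it.

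Among the mitochondrially encoded genes of ameloblasts, the 7 subunits of complex I all had lower means in KO than in WT, with a median log2 difference of -0.41, while mt-Cytb of complex III (0.00), mt-Co1, mt-Co2 and mt-Co3 of complex IV (median -0.06) and the pair of complex V (median 0.02) had values or medians near 0. None of the 13 passed limma's test (adjusted p under 0.05 over all 16212 genes, at which 0% of all genes were called), and 0 had an unadjusted p under 0.05, as 3.07% of all genes did. mt-Nd6, the only member transcribed from the light strand, stood at 5109, 7359 and 6231 normalized counts in KO1, KO3 and KO9, against 9790 and 7015 in WT5 and WT10. KO3 lay between the WT libraries, and the log2 difference was -0.43 (SE 0.26, limma adjusted p = 0.989). mt-Nd2 stood at 11260, 14473 and 11988 in KO, against 19826 and 13934 in WT (log2 difference -0.41, SE 0.26, limma adjusted p = 0.989). Both genes were highest in WT5, and KO3 again lay between the WT libraries. mt-Nd4l stood at 559.1, 582.4 and 822.7 in KO, against 952.2 and 838.3 in WT, without overlap (log2 difference -0.47, SE 0.28, 95% interval -1.14 to 0.20). Every KO library lay below every WT library for mt-Nd1 and mt-Nd4l, 2 of 13 genes, as for 9.26% of all genes. The median over the 13 genes was -0.25, and without WT5 (WT replicate 2) it was -0.043. A p that misses the threshold with so few libraries does not show that the genotypes were alike.

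In the stratum intermedium, 11 of the 13 mitochondrially encoded genes had lower means in KO, with a median of -0.24, and mt-Nd3 and mt-Nd4l were the other two. Every KO library lay below every WT library for 7 of 13, namely mt-Nd1, mt-Nd2, mt-Nd4, mt-Nd5, mt-Nd6, mt-Co1 and mt-Atp6, as for 7.44% of all genes. With limma 0 of 13 passed the threshold over all 16543 genes, again with 0% of all genes called, and mt-Atp6 alone had an unadjusted p under 0.05, as 2.06% of all genes did. mt-Atp6, a subunit of the proton channel of ATP synthase, stood at 30584, 36528 and 34715 in KO1, KO3 and KO9, against 52218 and 41763 in WT5 and WT10. The groups did not overlap (log2 difference -0.46, SE 0.19, limma unadjusted p = 0.0419, adjusted p = 1). mt-Nd6 stood at 7380, 8551 and 8097 in KO, against 10469 and 10010 in WT (log2 difference -0.36, SE 0.16, limma adjusted p = 1). mt-Nd4, another core subunit of complex I, stood at 39206, 42009 and 46329 in KO, against 50414 and 54703 in WT (log2 difference -0.31, SE 0.17, limma adjusted p = 1). In mt-Nd6 the gap between the highest KO and the lowest WT library was wider than the range within KO, while in mt-Atp6 and mt-Nd4 it was narrower. The median over the 13 genes lay between -0.33 and -0.19 when each library was left out in turn.

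Some mitochondrially encoded genes followed other features of the libraries. mt-Co3, a core subunit of complex IV, was low in library group 2, at 17284 and 14287 in KO9 and WT10 ameloblasts and 17582 and 17702 in their stratum intermedium, against 19364 to 30537 in the other 6 libraries. It made up 2.93% to 3.62% of the mitochondrially encoded sum in group 2 and 4.02% to 5.98% in the other libraries. mt-Atp6 and mt-Atp8 are read from the same messenger RNA. Their ratio was 4.16 in WT5 ameloblasts and 3.58 in WT5 stratum intermedium, against 2.37 to 2.99 in the other 8 libraries. In WT5 ameloblasts mt-Cytb was also at its lowest share of the mitochondrially encoded sum, 26.7%, against 29.4% to 34.2% in the other libraries. What part library preparation has in these values was not tested.

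**Figure D2:**
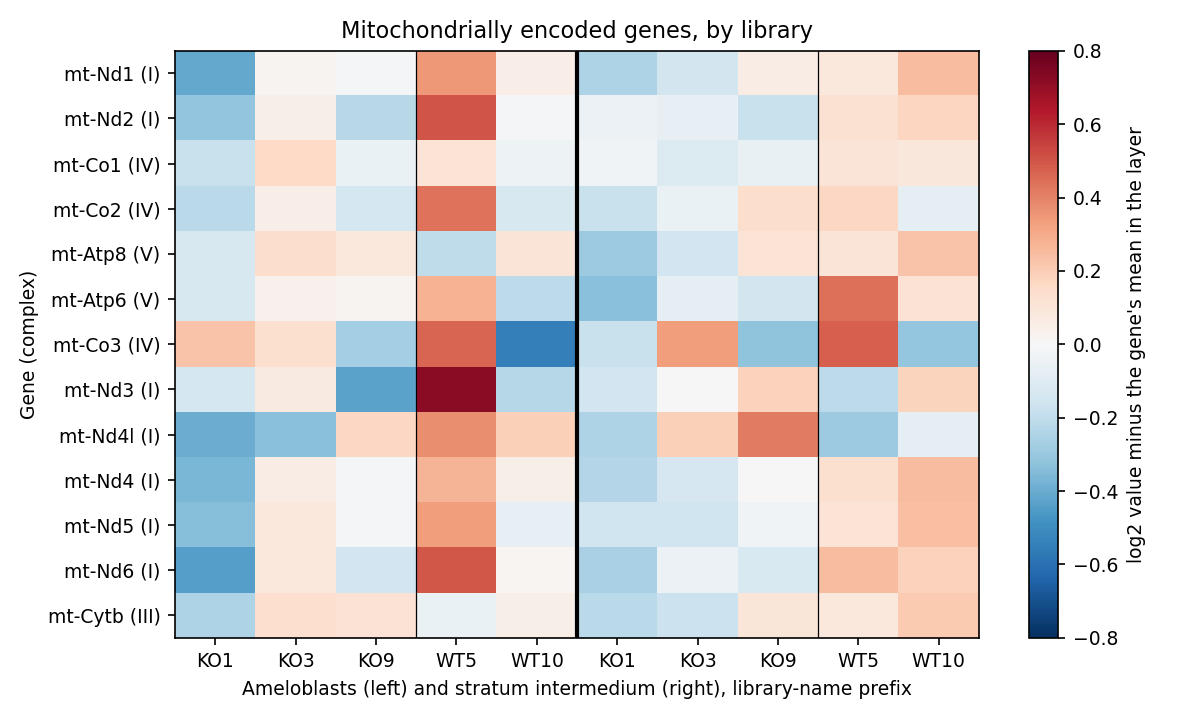
Each cell gives the log2 normalized count of a mitochondrially encoded gene (rows, in genome order, with the complex) in a library (columns), minus the gene's mean over the 5 libraries of the layer. WT5 ameloblasts are above the mean for all genes except mt-Atp8 and mt-Cytb, and KO1 is below it for most genes in both layers.

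The nuclear members of ameloblasts had lower means in KO for 69 of 85 genes, with a median log2 difference of -0.20, in a table where 47% of all genes were lower. Complex V had 16 of 17 lower (median -0.25), complex IV 13 of 17 (-0.21), complex III 6 of 8 (-0.19), complex I 32 of 39 (-0.19) and complex II 2 of 4 (0.05). Every KO library lay below every WT library for 25 of 85, as for 9.26% of all genes, and above for 0 of 85, as for 9.09% of all genes. With limma 0 of 85 passed the threshold, and 0 had an unadjusted p under 0.05. Markers of other cell types differed in the same libraries. All 5 red blood cell markers had every KO library below every WT library (median -2.33), with shares of 0.0814%, 0.144% and 0.0930% in KO, against 1.28% and 0.244% in WT. All 7 osteoclast markers had lower means in KO (median -0.97), and the part of these cells in the nuclear values was not tested.

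Among the ameloblast values, Atp5k, subunit e of ATP synthase that helps the enzyme form dimers, stood at 823, 1033 and 907.7 normalized counts in KO1, KO3 and KO9, against 1740 and 1166 in WT5 and WT10. The groups did not overlap, and the log2 difference was -0.63 (SE 0.27, 95% interval -1.28 to 0.01, limma adjusted p = 0.989). Ndufa5, an accessory subunit of complex I, stood at 1506, 2004 and 1725 in KO, against 2635 and 2247 in WT (log2 difference -0.49, SE 0.23). Ndufs6, a zinc-binding subunit of complex I, stood at 1961, 2088 and 1761 in KO, against 2667 and 2495 in WT (log2 difference -0.42, SE 0.21). In both genes all 3 KO libraries were lower than both WT libraries, and the limma adjusted p was 0.989. Cox7c, a small subunit of complex IV, stood at 4182, 5210 and 4436 in KO, against 6494 and 5658 in WT (log2 difference -0.40, SE 0.22). Uqcr10, a small subunit of complex III, stood at 3961, 5074 and 4421 in KO, against 6067 and 5616 in WT (log2 difference -0.39, SE 0.22). These groups did not overlap either, and the limma adjusted p was 0.989 for both. Cox7a2, Uqcrb and Atp5mpl, which complete the pair of each complex with the smallest p, had log2 differences of -0.34 (SE 0.22), -0.28 (SE 0.22) and -0.41 (SE 0.25), with limma adjusted p = 0.989 each. Complex II lay on both sides of 0: Sdha, the subunit that oxidises succinate, stood at 4207, 4379 and 4774 in KO, against 4536 and 3077 in WT, and the groups overlapped. The other 3 members of complex II, the iron-sulfur subunit Sdhb and the membrane anchors Sdhc and Sdhd, overlapped as well.

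In the stratum intermedium the nuclear members had higher means in KO for 73 of 85 genes, with a median log2 difference of 0.11, in a table where 48.1% of all genes were lower. All 17 of complex IV were higher (median 0.13), as were 15 of 17 of complex V (0.11), 6 of 8 of complex III (0.10), 32 of 39 of complex I (0.09) and 3 of 4 of complex II (0.08). Every KO library lay above every WT library for 9 of 85, as for 7.76% of all genes, a share close to that of all genes, and below for 0. With limma 0 of 85 passed the threshold, and 0 had an unadjusted p under 0.05. The direction rested on 1 library: without WT5 (WT replicate 2) the median was -0.069 and 55 of 85 genes were lower in KO, while without WT10 (WT replicate 1) it was 0.26 and 3 were lower. Within library group 1, where KO3 is set against WT5, 83 of 85 were higher in KO, and within group 2, where KO9 is set against WT10, 13 of 85 were. With presence of Xist as a covariate the median was -0.01. Only KO1 and KO3 have Xist, so that fit sets KO9 alone against the WT libraries. WT5 is also the library with the highest shares of red blood cell, osteoclast, and odontoblast and pulp markers. The part of these cells in this result was not tested.

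Among single nuclear genes of the stratum intermedium, Ndufa13, a complex I subunit also known as GRIM-19, stood at 8918, 8216 and 7670 in KO1, KO3 and KO9, against 6980 and 7128 in WT5 and WT10 (log2 difference 0.23, SE 0.17, limma adjusted p = 1). Ndufa1, a small membrane subunit of complex I encoded on the X chromosome, stood at 3555, 3159 and 2968 in KO, against 2626 and 2927 in WT (log2 difference 0.21, SE 0.19). For both genes KO and WT did not overlap, although KO9 was close to WT10 for Ndufa1. Atp5k stood at 1553, 1599 and 1653 in KO, against 1208 and 1532 in WT (log2 difference 0.24, SE 0.21, limma adjusted p = 1). KO and WT did not overlap, but WT10 was close to KO1 and only WT5 was well below. Uqcr11 and Uqcrc1 of complex III had differences of 0.24 (SE 0.24) and 0.20 (SE 0.25), and Atp5mpl one of 0.23 (SE 0.20), with overlap between the groups and limma adjusted p = 1 each. Uqcrc1, a core protein of complex III, stood at 17194, 15200 and 16575 in KO, against 10709 and 18686 in WT, so the WT libraries enclosed the KO libraries.

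**Figure D3:**
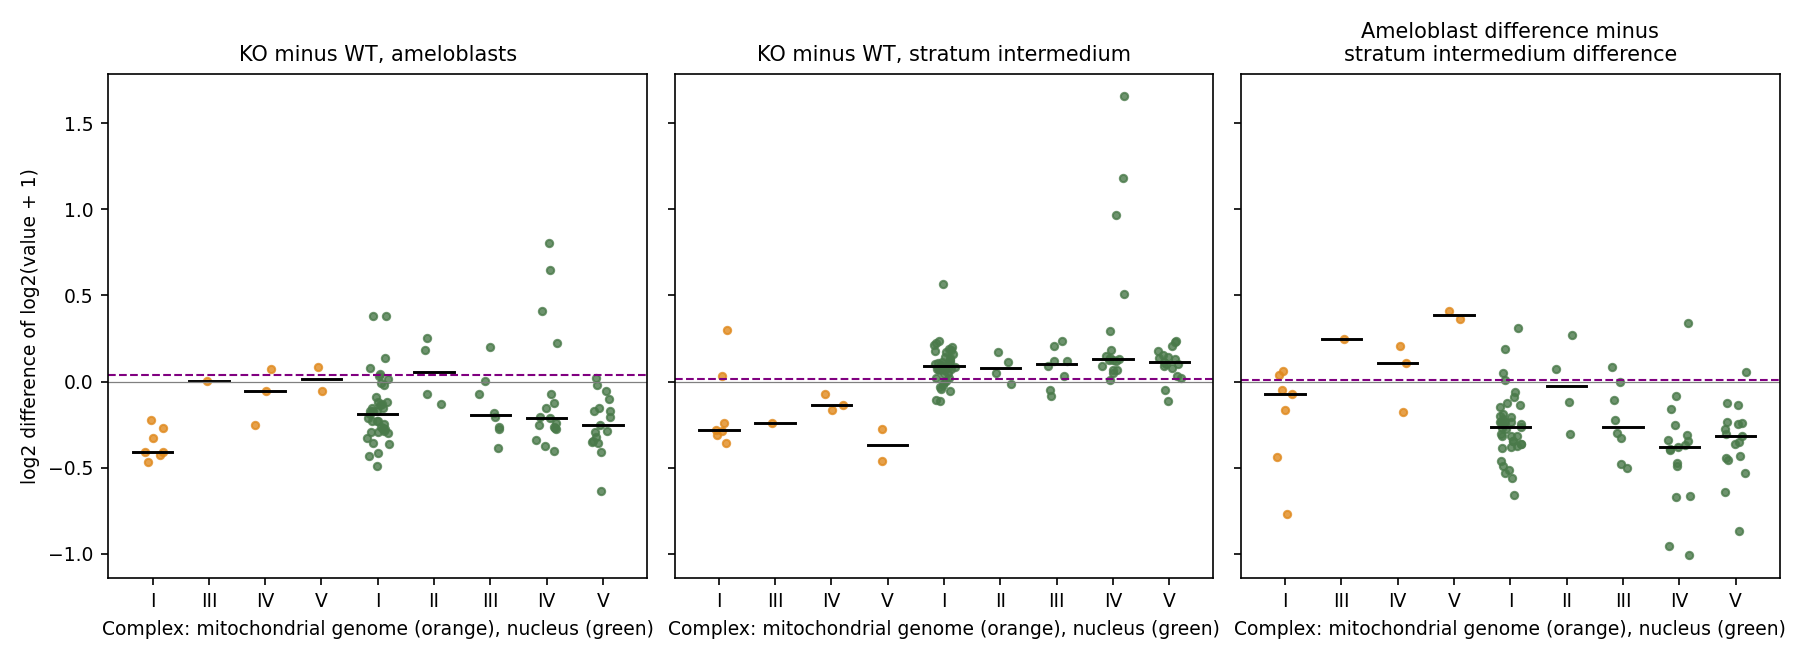
Points are the log2 differences of single genes by complex, for the mitochondrial genome (orange) and the nucleus (green), with the median of each complex (black bars) and of all genes tested (dashed line). Nuclear members lie mostly below 0 in ameloblasts (median -0.20) and above it in the stratum intermedium (0.11), while mitochondrially encoded members lie mostly below 0 in both (-0.25 and -0.24).

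Whether the genotypes differed by unequal amounts in the layers was tested over 15567 genes. For each prefix the stratum intermedium value was subtracted from the ameloblast value on the log2 scale, and KO prefixes were compared with WT prefixes. Nuclear members had a negative value for 76 of 85, with a median of -0.31, in a comparison where 49.6% of all genes were negative. All KO prefixes lay below both WT prefixes for 37 of 85, as for 11.5% of all genes, and above for 0, as for 10.9% of all genes. Mitochondrially encoded members had a median of 0.04, with 6 of 13 negative. With limma 0 of 98 members and 0% of all genes passed the threshold. An unadjusted p under 0.05 was reached by 8 of 98 members, all negative, and by 5.15% of all genes. That count depended on single prefixes: it was 2 without KO1, 1 without KO3, 0 without KO9, 1 without WT5 and 29 without WT10. With library group as a block, where KO1 is alone in its group and adds nothing to the differences, it was 3. With presence of Xist as a covariate only KO9 is set against the WT prefixes, and the nuclear median was -0.39. Markers of cell types also differed between KO and WT over all 5 prefixes. All 5 red blood cell markers (median -1.39) and all 7 osteoclast markers (-0.86) were negative. Of the ameloblast markers 6 of 7 (1.34) were positive, and so were all 8 stratum intermedium markers (0.63). The last list includes Cldn10, the knocked-out gene, whose sign cannot be read as one of cell content. The part of these markers in the members' values was not tested. Complex IV had the most negative nuclear median (-0.38), followed by complex V (-0.32), complex I (-0.26) and complex III (-0.26), and complex II was near 0 (-0.03).

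Ndufa6, an accessory subunit of complex I, had the smallest p. It stood at 3611, 3492 and 2934 in KO1, KO3 and KO9 ameloblasts, against 4237 and 4337 in WT5 and WT10, and at 4474, 4277 and 4039 in the KO stratum intermedium, against 3417 and 4034 in WT. KO was lower than WT in 1 layer and higher in the other, and the groups did not overlap in either, although KO9 and WT10 nearly met in the stratum intermedium (log2 difference of differences -0.56, SE 0.20, limma unadjusted p = 0.0271, adjusted p = 0.836). Ndufb7, another accessory subunit of complex I, gave -0.51 (SE 0.19). Atp5k gave -0.87 (SE 0.33) and Atp5j2, subunit f of ATP synthase, -0.53 (SE 0.22), each with limma adjusted p = 0.836. Cox6a2, Cox7c, Uqcr11 and Uqcr10 gave -0.96 (SE 0.43), -0.49 (SE 0.23), -0.50 (SE 0.25) and -0.48 (SE 0.26), with the same adjusted p. Among mitochondrially encoded genes, mt-Nd4l gave -0.77 (SE 0.30), while both complex V genes, mt-Atp6 and mt-Atp8, gave positive values of 0.41 (SE 0.21) and 0.36 (SE 0.21), with limma adjusted p = 0.836 each. mt-Atp6 and mt-Atp8, together with mt-Cytb, had all KO prefixes above both WT prefixes. The size of the nuclear difference rested on WT5: its median was -0.088 without that prefix, with 59 of 85 negative, and -0.48 without WT10.

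Set layer against layer within each prefix, relative to the median gene of that prefix, nuclear members were lower in ameloblasts in 4 of the 5 prefixes, with medians of -0.27, -0.17 and -0.26 in KO1, KO3 and KO9 and of -0.22 in WT10. In WT5 the median was 0.30. Mitochondrially encoded members had medians of -0.19, 0.04 and -0.17 in KO1, KO3 and KO9, against 0.08 and -0.30 in WT5 and WT10, and none of the 13 kept the same direction in all 5 prefixes. Because the layers were normalized in separate tables, these values were not tested. Among nuclear members, 5 were above the median gene in all 5 prefixes (11.1% of all genes were) and 7 were below it (9.96% of all genes were). Among these 12, the largest differences in each direction were those of Ndufa4l2 (mean 1.09, SD 0.24, n = 5 prefixes) and Cox4i2 (mean 0.76, SD 0.41), higher in ameloblasts, and of Ndufv1 (mean -0.36, SD 0.34) and Sdha (mean -0.31, SD 0.27), lower in ameloblasts. Ndufv1 is the flavin subunit at which NADH is oxidised. It stood at 2275, 2689 and 2650 in KO ameloblasts and 2661 and 1991 in WT ameloblasts, and at 3531, 3379 and 3347 in the KO stratum intermedium and 3161 and 3985 in WT.

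**Figure D4:**
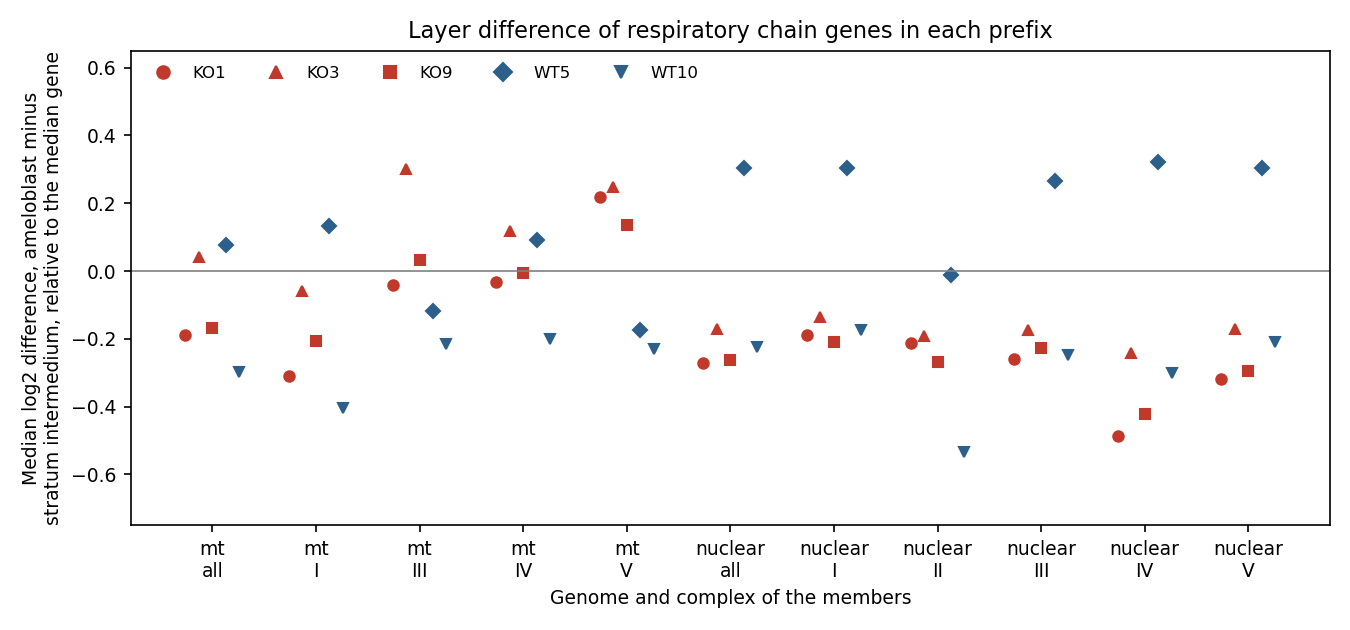
Points give, for each prefix, the median over members of the log2 difference between ameloblasts and stratum intermedium, relative to the median of all genes in that prefix (0 on the axis). The nuclear medians are negative in KO1, KO3, KO9 and WT10 and positive in WT5, except in complex II, where all 5 are below 0.

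The widest spread among the members belonged to tissue forms of complex I and complex IV subunits. Ndufa4l2 and Cox4i2 are known as forms induced by low oxygen, and Ndufa4l2 is counted here under complex I by its symbol, although its relative Ndufa4 is now assigned to complex IV. Ndufa4l2 stood at 24590, 5492 and 2751 normalized counts in KO1, KO3 and KO9 ameloblasts, against 8270 and 3681 in WT5 and WT10. Its stratum intermedium values were 12911, 3792 and 1245 in KO, against 4123 and 1708 in WT. KO1 was the highest library and KO9 the lowest in both layers, so the KO libraries enclosed the WT libraries, and the log2 differences of 0.38 (SE 0.86, limma adjusted p = 0.99) and 0.57 (SE 0.88, limma adjusted p = 1) were smaller than their errors. Without KO1 both turned negative, at -0.51 and -0.29. Per kilobase, Ndufa4l2 made up 85.5%, 48.7% and 40.1% of the sum of Ndufa4l2 and Ndufa4 in KO ameloblasts, against 60.7% and 42.7% in WT, and 73.9%, 38.8% and 19.2% in the KO stratum intermedium, against 46.1% and 24.3% in WT. In each prefix the share was higher in ameloblasts.

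Cox4i2 stood at 5362, 3029 and 820.9 in KO1, KO3 and KO9 ameloblasts, against 1794 and 1783 in WT5 and WT10, and at 3510, 1212 and 658.1 in the KO stratum intermedium, against 1374 and 1321 in WT. Again KO1 was the highest and KO9 the lowest. The log2 differences were 0.41 (SE 0.71, limma adjusted p = 0.989) and 0.06 (SE 0.62, limma adjusted p = 1), and without KO1 they were -0.18 and -0.59. Its ubiquitous counterpart Cox4i1 varied little, between 12937 and 17896 in ameloblasts and between 16500 and 20830 in the stratum intermedium. Cox4i2 made up 42.3%, 28.2% and 11.1% of both forms per kilobase in KO ameloblasts, against 16.5% and 17.9% in WT. A list of 8 other genes known to respond to low oxygen was chosen after the members' values were seen. Of these, 4 were highest in KO1 in ameloblasts and 5 in the stratum intermedium. The share of all genes that were highest in KO1 was not computed, so these counts have no background. Bnip3, a mitophagy receptor, stood at 17099 in KO1 ameloblasts, against 3831 to 5777 in the other 4, and Slc2a1, a glucose transporter, at 3995, against 601.1 to 882.6. Vegfa, which encodes a growth factor for vessels, was lowest in KO1 ameloblasts, at 61.7, against 81.9 to 93.0 in the others. Rgs5, a marker of pericytes, which also express both forms, stood at 1410 in KO1 ameloblasts and 523.1 to 1928 in the others. In the separately normalized stratum intermedium it stood at 3913 in KO1 and 3376 to 6327 in the others. Of the 4 pericyte genes listed, 0 were highest in KO1 in ameloblasts and 1, Notch3, in the stratum intermedium. The part of pericytes was not tested. The share of ameloblast markers, 9.12%, was also highest in KO1 ameloblasts, and its part in these values was not tested.

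Forms known from muscle stood at low levels and are given beside muscle transcripts. Cox8b stood at 219.4, 339.4 and 114.8 in the KO1, KO3 and KO9 stratum intermedium, against 149.5 and 27.2 in WT5 and WT10 (log2 difference 1.66, SE 0.82, limma adjusted p = 1). KO9 lay between the WT libraries. Cox6a2 stood at 1054, 1475 and 588.8 in KO, against 839 and 217.9 in WT (log2 difference 1.18, SE 0.61, limma adjusted p = 1), again with overlap. Cox7a1 stood at 248.3, 213 and 102.8 in KO, against 98.3 and 81.6 in WT, without overlap (log2 difference 0.97, SE 0.54, limma adjusted p = 1). Skeletal muscle markers made up 0.472%, 0.634% and 0.184% of these KO libraries, against 0.296% and 0.0989% of the WT libraries, and 11 of 12 of them had higher means in KO. Cox8b and Cox6a2 ranked these libraries in the same order as the muscle share, and Cox7a1 did not. No association was computed. In ameloblasts all 3 genes were lowest in WT10, where Cox8b stood at 16.6, Cox7a1 at 14.8 and Cox6a2 at 118.5, and highest in WT5. The muscle markers there made up 0.249%, 0.177% and 0.0628% in KO, against 0.318% in WT5 and 0.0164% in WT10, where Mb, Myh1, Tcap and Pvalb were listed at 0. In every library the ubiquitous forms dominated: Cox8b was at most 7.89% of Cox8b and Cox8a together per kilobase, Cox6a2 at most 11.9% of its pair and Cox7a1 at most 7.66% of Cox7a1 and Cox7a2. Whether the muscle forms come from muscle in the captures was not tested. Cox6b2, known from testis, was at most 3.09% of its pair, and the genes for the c-ring of ATP synthase, Atp5g1, Atp5g2 and Atp5g3, overlapped between genotypes in both layers except Atp5g2 in ameloblasts, at 2913, 2788 and 2555 in KO, against 3333 and 3413 in WT.

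**Figure D5:**
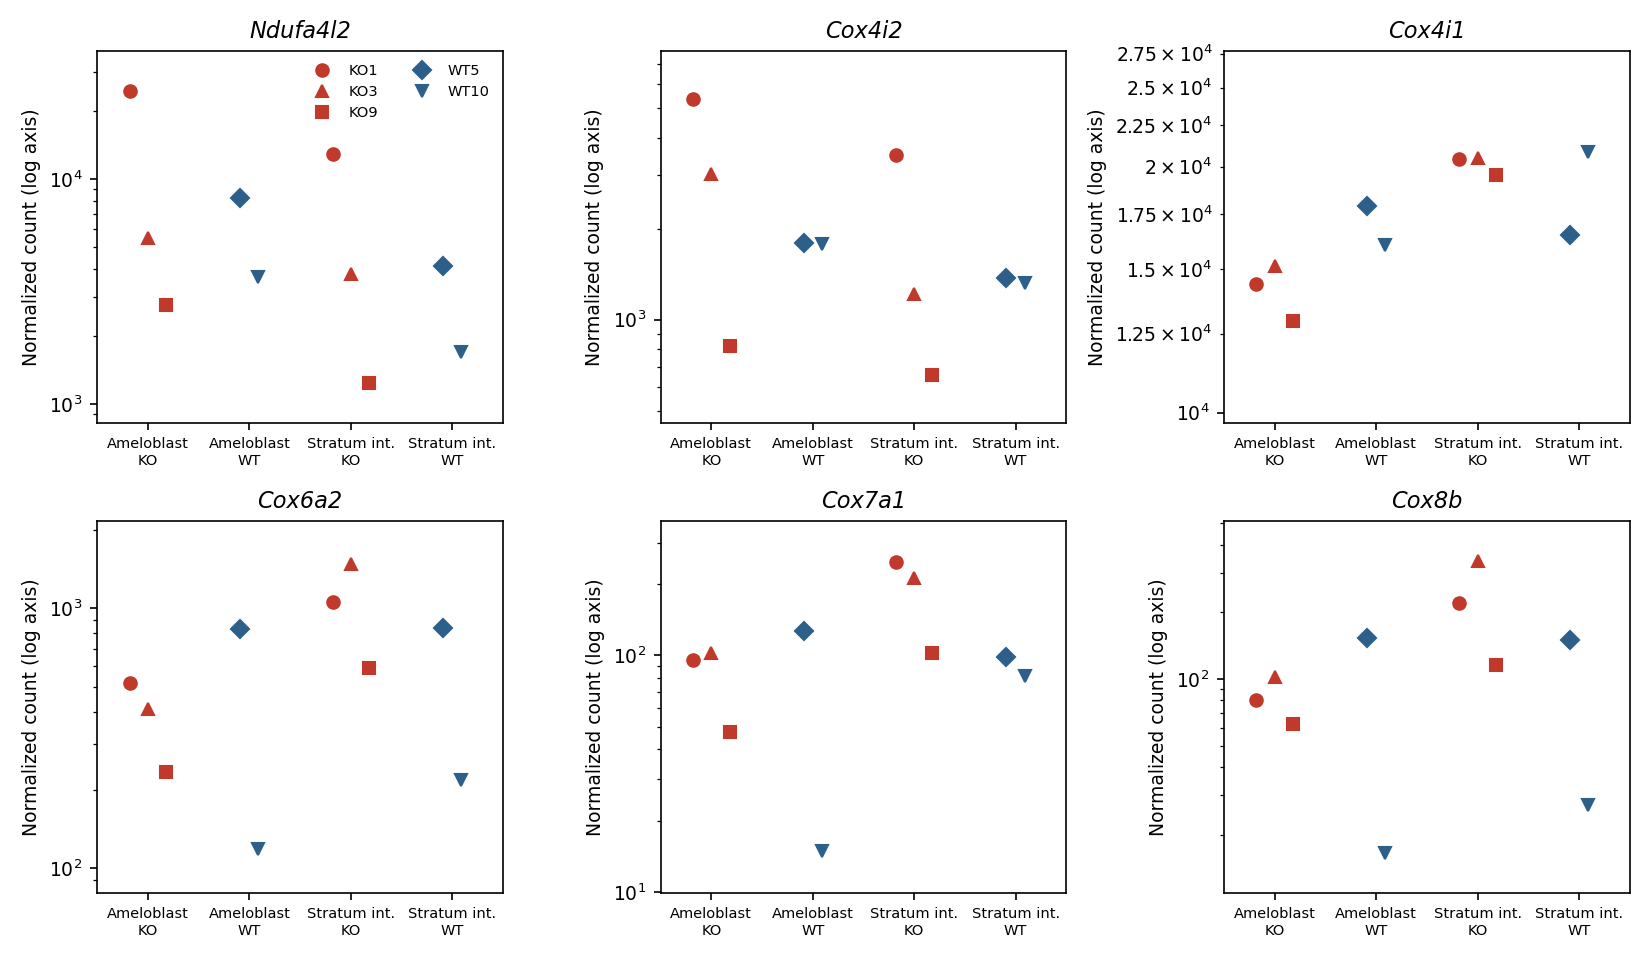
Points are normalized counts (log axes, each panel with its own range) of 6 tissue or ubiquitous forms in each library, by layer and genotype. KO1 is highest and KO9 lowest for Ndufa4l2 and Cox4i2 in both layers, Cox4i1 spans a narrow range, and Cox6a2, Cox7a1 and Cox8b are lowest in WT10.

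Other genes that serve the respiratory chain were set beside the members. None of these lists had a gene past limma's threshold in any comparison. In ameloblasts the smallest p of its list belonged to Ndufaf2 (assembly), Primpol (mitochondrial DNA), Pnpt1 (RNA processing), Pprc1 (biogenesis), Etfdh (electron carriers) and Mrpl48 (ribosome), with limma adjusted p = 0.989 each. In ameloblasts and between layers, the list with the median closest to that of the nuclear members was that of the 78 mitochondrial ribosomal protein genes, which are also nuclear: 67 had lower means in KO ameloblasts (median -0.21), 46 had higher means in the KO stratum intermedium (0.02), and 65 were negative in the comparison between layers (-0.24). No test of a difference between these genes and the nuclear members was run. Of 46 assembly factors, 28 were lower in KO ameloblasts (median -0.08) and 21 in the KO stratum intermedium (0.03), and of 17 tricarboxylic acid cycle genes 12 were higher in KO in each layer (medians 0.08 and 0.10). The electron carrier and coenzyme Q genes had medians of 0.03 and 0.05 (15 genes). For mitochondrial DNA transcription and replication (15 genes) the medians were -0.12 in ameloblasts and -0.06 in the stratum intermedium, and for mitochondrial RNA processing (17 genes) 0.02 and -0.14. Tfam and Ppargc1a are named although they were chosen after their values were seen. Tfam, which packages mitochondrial DNA and starts its transcription, stood at 629.4, 673.8 and 690.6 in KO ameloblasts, against 514.2 and 501 in WT, and at 835.1, 918.6 and 403.5 in the KO stratum intermedium, against 914.2 and 916.7 in WT. Of the regulators of mitochondrial biogenesis, with medians of 0.20 in ameloblasts (14 genes) and -0.11 in the stratum intermedium (13 genes), Pprc1, a coactivator related to PGC-1α, stood at 151.8, 186.1 and 230.1 in KO ameloblasts, against 522.1 and 297.8 in WT, and at 145.9, 270.3 and 457.3 in the KO stratum intermedium, against 547.4 and 415.4 in WT. Ppargc1a, which encodes PGC-1α itself, was lower in ameloblasts than in the stratum intermedium in every prefix, at 124.7, 387.5 and 58.9 in KO and 92.7 and 60.1 in WT ameloblasts, and at 1118, 679.5 and 811 in KO and 461.6 and 903.9 in WT stratum intermedium, values from separately normalized tables.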

How the data were processed

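The signal values were deposited by the authors as normalized counts per gene, 1 table per layer, and the labels name DESeq2 for the matrix. The submitters' processing notes list GRCm38 as build and, as tools, STAR 2.5.2b, featureCounts, DESeq, FastQC and Picard 2.8.1. The sources used here do not give strand and overlap settings. Per the labels' protocols, stranded polyA libraries were made from RNA of laser-captured cells. Values were not whole steps, so reads could not be recovered and depth is unknown. They summed to between 21006977 and 26856177 per library, and 0 columns were left unused. The names of both deposited matrices carry the term noOutlier, so libraries may have been left out before normalization. Spreads and p-values then describe only the libraries that were kept.

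Members were matched by symbol; exon lengths and positions came from GENCODE on GRCm38 and promoter windows from RefSeq. The moderated two-sided test of limma 3.58.1 with a trend (R 4.3.3) was run on log2(value + 1). Genes needed a mean of 10 or more, with Benjamini-Hochberg adjustment over each whole table and a threshold of 0.05, in KO against WT of each layer and on ameloblast minus stratum intermedium per prefix. Log2 differences are on the log2(value + 1) scale. Sums, ratios, medians and layer differences were described without a test. Limma was tested on simulated data. Figures used matplotlib 3.10.9.

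Named were all mitochondrially encoded members, complex II, tissue isoforms, in each of the other complexes the 2 nuclear members with the smallest p per comparison, and the 2 with the largest layer difference each way among those with 1 direction in all 5 prefixes. Of other lists, the member with the smallest p in ameloblasts was named, except 1 that is not reported here. The members and lists were chosen with earlier results of these data known, and the low-oxygen and pericyte genes after the members' values were seen. Some replicate numbers recur in both genotypes of a layer but gave no sign of pairing the samples. Alternatives were other pseudocounts, filters, scalings, variance models, blocks and covariates, and each library left out.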

Additional observations from a re-analysis of the deposited data

Results flagged for a closer look

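The log2 ratio of mitochondrially encoded to nuclear members moved in opposite directions between layers in the 2 genotypes. Ameloblast minus stratum intermedium, it was above 0 in all 3 KO prefixes and below 0 in both WT prefixes, and the KO minus WT difference was 0.37. The same held for complex V alone, with a difference of 0.67. Neither difference was tested. In both cases WT5 lay farthest from the KO prefixes.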

How the results depend on the processing

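No member passed the threshold in any comparison under any alternative that was run. The median differences of both genomes stayed within 1 SD of the spread between libraries under other pseudocounts, filters, scalings, variance models and library weights. The median of nuclear members in ameloblasts was -0.42 with presence of Xist as a covariate. Only KO1 and KO3 have Xist, so a fit with this covariate sets KO9 alone against the WT libraries. It cannot serve as an adjustment for sex. Leaving out each library, the ameloblast medians lay between -0.44 and -0.043 for mitochondrially encoded members (-0.043 without WT replicate 2) and between -0.26 and -0.11 for nuclear members. In the stratum intermedium they lay between -0.33 and -0.19 and between -0.069 and 0.26, and between layers, leaving out each prefix, between -0.20 and 0.21 and between -0.48 and -0.088. The ratio of both genomes, KO minus WT, was 0.34 within library group 2 in ameloblasts and 0.032 in the stratum intermedium, and the difference between layers was 0.54 within library group 1. The cause of these shifts was not tested.

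Replicate numbers gave no sign of pairing the libraries. Each library was taken as its deviation from the mean of its genotype. Between same-numbered KO and WT libraries these deviations were correlated across genes at 0.09 and -0.12 in ameloblasts. In the stratum intermedium the values were -0.19 and -0.13. The libraries themselves were correlated at 0.877 and 0.884 in ameloblasts and at 0.8655 and 0.875 in the stratum intermedium. Within library groups the deviations of KO3 and WT5 were correlated at 0.27 and 0.19 in the layers, and those of KO9 and WT10 at 0.12 and 0.0059. KO3 and WT5 were the most closely correlated libraries of each layer, at 0.9437 and 0.9472, while KO9 and WT10 had 0.8753 and 0.8693. The main tests had no term for library group. The WT deviations mirror each other, so each KO library has values of opposite sign with them, and the check is weak. With the replicate number as a block, medians of mitochondrially encoded and nuclear members were -0.33 and -0.26 in ameloblasts, with 0 called. In the stratum intermedium they were -0.33 and 0.16, with 0 called. KO replicate 3 shares its number with no WT library, so these medians equal those without it and are not a further check. The comparison between layers pairs the libraries by prefix. It was not refitted with a replicate block, because the KO numbers belong to different prefixes in each layer.

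Of 38 single-gene differences, Ndufa4l2, Cox4i2, Uqcr11 and Uqcrc1 changed sign. With library group as a block, Ndufa4l2 gave -0.51 in ameloblasts and -0.29 in the stratum intermedium, and Cox4i2 gave -0.18 and -0.59. KO1 is alone in its group, so these differences equal those without KO1 and are not a further check. With the Xist covariate, Ndufa4l2 gave -1.003 and -1.09, Cox4i2 gave -1.12 and -1.03, and Uqcr11 in the stratum intermedium gave -0.026. These are differences of KO9 alone from the WT libraries. With library weights Cox4i2 gave -0.19 in the stratum intermedium. Leaving out each library, Ndufa4l2 lay between -0.51 and 1.07 in ameloblasts and between -0.29 and 1.399 in the stratum intermedium. Cox4i2 lay between -0.18 and 1.17 and between -0.59 and 0.61, and Uqcrc1 in the stratum intermedium between -0.20 and 0.61.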
